A study of Oryza sativa Japonica Group with 4 samples.

Results

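In rice roots, 8 genes of ammonium assimilation were followed, of 17905 genes that the array annotation assigns to probe sets of a single gene. They were chosen by gene symbol or synonym, and 13 probe sets, from 1 to 3 for a gene, stand for them. They comprise 3 glutamine synthetase genes (GLN1-2, GLN1-3 and GLN2), 2 glutamate synthase genes (Fd-GOGAT and GLT2) and 3 glutamate dehydrogenase genes (GDH1, GDH2 and GDH3). In the gene table they carry the symbols LOC4332108, LOC4333896, LOC4337272, LOC4344164, LOC4339561, LOC4334405, LOC4336554 and LOC4330164, in that order. RNA came from roots of Oryza sativa Japonica cultivar TNG67. The seedlings were germinated for 3 days in darkness, then raised for 2 weeks in hydroponic solution lacking NH4NO3, and were 17 days old when sampled. In their last 30 min they stood either again in solution without nitrogen (minus N, 2 arrays) or in 2.5 mM glutamine (plus glutamine, 2 arrays), so both groups share the starvation and the transfer. Each group has biological repeats numbered 1 and 2. The labels do not say how many plants a sample held or how the repeats were kept apart, and p-values therefore measure only the spread between these samples.

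Plants join ammonium to glutamate by glutamine synthetase, which forms glutamine. Glutamate synthase, also called GOGAT, then passes the amide nitrogen of glutamine to 2-oxoglutarate and gives glutamate back, drawing its electrons from ferredoxin or from NADH. Glutamate dehydrogenase of mitochondria can release or bind ammonium at glutamate. Glutamine is thus the product of the first enzyme and the substrate of the second. The comparison of the groups asks whether transcripts of these enzymes differ once starved roots have met glutamine for 30 min.

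For each probe set the deposited value is a linear intensity per array, without a detection call. An intensity depends on the probes as well as on the transcript, so the level of 1 isoform was not set against that of another. The median over the 57258 probe sets that are not array controls lay between 19.7 and 22.2 on the 4 arrays. It was 19.9 (minus N) and 19.7 (plus glutamine) on the arrays numbered 1, and 21.7 and 22.2 on those numbered 2. The ratio of 3′ to 5′ signal of the actin control, a measure of RNA integrity and labelling, was 6.73 and 6.16 on the arrays numbered 1 of the minus N and plus glutamine groups, and 4.98 and 4.60 on those numbered 2. It was lower on the array numbered 2 within both groups, and lower with glutamine within both repeats. Of the markers listed for root, 9 genes were matched. Lsi1, a silicon channel gene of root cells, was bright at 12.83 to 13.14 on the log2 scale, whereas the root patterning gene OsSCR1 was dim at 3.55 to 3.90. Of the markers of green tissue 4 genes were matched, of which CAB2R, a chlorophyll-binding protein gene, was bright on every array (13.07 to 13.36 on the log2 scale) and RBCS1, of the small Rubisco subunit, was dim, with intensities of 4.0 to 4.3. The lowest value of any probe set was 2.9, so the absence of a marker at 0 does not show detection. Of the seed storage markers 10 genes were matched, and their summed intensity ranged from 1238 to 1442 without nitrogen and from 1446 to 1578 with glutamine. GLB alone made up 71.0% to 76.4% of this sum on an array, and the median log2 difference of the 10 genes was -0.02.

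GLN1-2 encodes a cytosolic glutamine synthetase, the isoform known in rice for primary ammonium assimilation in roots. Its intensity was 2745 and 4945 in minus N repeats 1 and 2, and 3051 and 4824 in plus glutamine repeats 1 and 2. Both repeats numbered 2 were high and both numbered 1 were low, and the groups overlapped. The log2 means were 11.85 ± 0.60 (SD, n = 2) and 11.91 ± 0.47 (SD, n = 2). Their difference of 0.06 (SE 0.39, 95% interval from -0.92 to 1.03) corresponds to 1.04-fold, with 0.53-fold and 2.05-fold as the limits. The repeats without nitrogen lay 0.85 apart. Without minus N repeat 1 the difference was -0.37, and without minus N repeat 2 it was 0.48.

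GLN1-3 encodes the cytosolic isoform known mainly from rice spikelets. Its intensity stood close to the array median, at 21.7 and 25.7 without nitrogen and at 26.4 and 26.3 with glutamine for repeats 1 and 2. Both glutamine arrays were above both minus N arrays, but the nearest values of the groups, 25.7 and 26.3, lay close together. The log2 difference was 0.16 (SE 0.22, 95% interval from -0.39 to 0.70). After quantile normalization between arrays the groups overlapped. GLN1-1, a further cytosolic isoform outside the 8 genes, had log2 intensities of 12.39 and 12.81 without nitrogen and of 12.45 and 12.80 with glutamine, a difference of 0.02 (SE 0.26). Like GLN1-2 it was higher on the arrays numbered 2 in both groups.

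GLN2 encodes the plastid glutamine synthetase, which in leaves reassimilates ammonium from photorespiration. Its intensity was 157 and 386 in minus N repeats 1 and 2, and 233 and 317 in plus glutamine repeats 1 and 2. The minus N repeats were the lowest and the highest of the 4 arrays and enclosed both glutamine repeats. GLN2 was the single one of the 8 genes whose log2 values spanned at least 1, and its minus N repeats differed by 1.30. The difference between group means was 0.14 (SE 0.47, 95% interval from -1.04 to 1.32). Within repeat 1 the glutamine array was higher by 0.57, and within repeat 2 the difference was -0.28. Without minus N repeat 1 the difference was -0.51, and without minus N repeat 2 it was 0.79. The other probe set of GLN2 gave intensities of only 4.2 to 6.8 and a difference of -0.33 (SE 0.26), and lay at percentiles 2.1 to 19.7 of all probe sets.

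The green tissue markers rca and OsrbcS had the order of arrays seen for GLN2. Over the 4 matched genes, intensities summed to 9307 and 12721 in minus N repeats 1 and 2, and to 11342 and 11637 in plus glutamine repeats 1 and 2. The gene of Rubisco activase, rca, had log2 intensities of 8.63 and 10.15 without nitrogen and of 9.39 and 9.58 with glutamine. OsrbcS, a gene of the small Rubisco subunit, stood at 8.23 and 10.01, and at 9.31 and 9.77. The probe sets of rca and OsrbcS carry a suffix that marks possible cross-hybridisation. Both were lowest in minus N repeat 1 and highest in minus N repeat 2, which is also the order of GLN2. CAB2R had the same order over a smaller span and made up 82.9% to 92.5% of the sum on an array, whereas RBCS1 had equal values on both arrays numbered 2. The order was not limited to green tissue markers. Of the 9 matched root markers 3 had it, namely Lsi2 and Lsi6, named as silicon transporter genes, and the aquaporin gene OsPIP2;5. Lsi2 had log2 intensities of 9.25 and 10.28 without nitrogen and of 9.45 and 10.15 with glutamine. The summed intensity of the root markers, of which Lsi1 made up 70.7% to 81.7%, was 8964 and 12177 without nitrogen and 9428 and 12424 with glutamine. Among the 8 genes of ammonium assimilation GLN1-2, GLN2 and GDH1 had the order, and among all genes with 1 probe set each 19.5% had it. The part of green tissue in the values of GLN2 was not tested, and in whole roots a smaller share of a cell type and less transcript per cell cannot be told apart.

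Profiles were compared for GLN2 as the Euclidean distance between log2 values over the 4 arrays, each gene centred on its own mean. Among 2424 named genes the closest were OsPP2C27, of the protein phosphatase 2C family (distance 0.10), EXP3, an expansin gene (0.12), and CESA2, a cellulose synthase gene (0.12). The median distance over all these genes was 0.80. LFNR1, a leaf-type ferredoxin-NADP reductase gene, ranked 13th at 0.19, rca 28th at 0.25, NIA1, a nitrate reductase gene, 30th at 0.25 and OsrbcS 226th at 0.44. CAB2R ranked 1149th at 0.78, near the median. These distances rest on 4 arrays. The genes named here share the order with minus N repeat 1 lowest and minus N repeat 2 highest, except NIA1, which was highest in plus glutamine repeat 2.

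**Figure D1:**
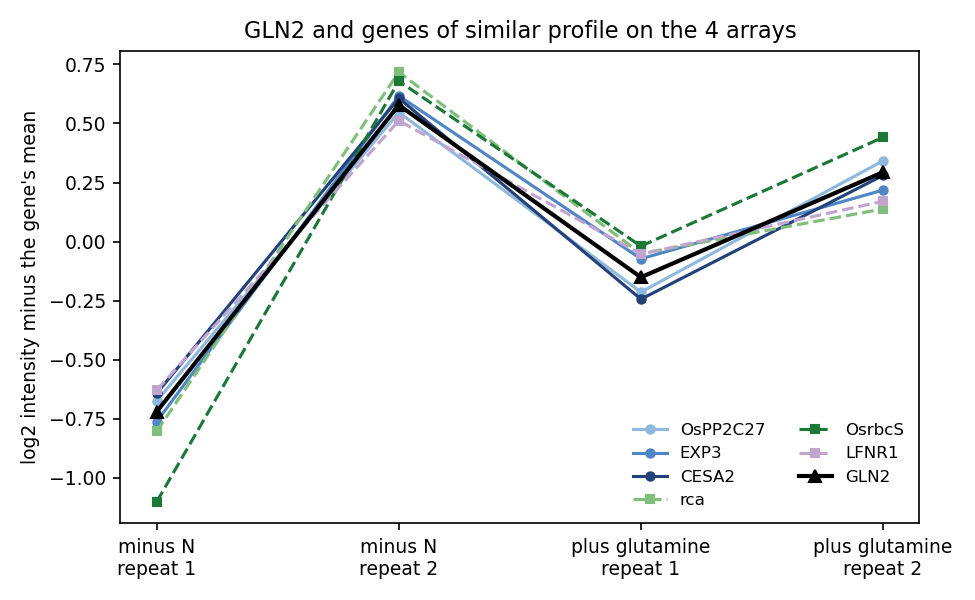
Log2 intensity of GLN2 (black), the 3 named genes of closest profile (blue), the green tissue markers rca and OsrbcS (dashed green) and LFNR1 (dashed violet), each minus the gene's own mean, on the 4 arrays along the x axis. Every curve drawn is lowest in minus N repeat 1 and highest in minus N repeat 2. The blue genes were chosen for their distance to GLN2 on these same 4 arrays. NIA1, which was highest in plus glutamine repeat 2, is not drawn, and neither are CAB2R and RBCS1.

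Fd-GOGAT encodes the ferredoxin-dependent glutamate synthase of plastids. Its brightest probe set gave intensities of 380 and 675 without nitrogen, and of 375 and 665 with glutamine, for repeats 1 and 2. The 2 groups were nearly superimposed, and each split by repeat number. The log2 difference between groups was -0.02 (SE 0.41, 95% interval from -1.06 to 1.02), and it was -0.02 within repeat 1 and within repeat 2. When limma also fitted the repeat number, the SE of this difference was 0.14. The arrays numbered 2 were higher by 0.83 in both groups. The other probe sets of Fd-GOGAT, whose names mark several transcripts of a gene as possible targets, differed by -0.22 (SE 0.38) and 0.08 (SE 0.42) between groups. They too were higher on the arrays numbered 2, by 0.61 and 0.90 without nitrogen and by 0.85 and 0.79 with glutamine. Without minus N repeat 1 the difference of the brightest probe set was -0.44, and without minus N repeat 2 it was 0.40.

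GLT2 encodes a glutamate synthase that uses NADH. Its intensity was 6.4 and 8.4 without nitrogen and 6.4 and 7.4 with glutamine for repeats 1 and 2. All 4 values lay below the array median, at percentiles 17.1 to 24.5 of all probe sets. The log2 difference was -0.09 (SE 0.24, 95% interval from -0.71 to 0.53). Without a detection call a transcript near background and an absent transcript cannot be told apart here, and the value is no measure of a response. The gene GLT1, which encodes the other NADH-dependent enzyme, was not matched by name and is not analysed here.

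Of the glutamate dehydrogenase genes, GDH2 was higher with glutamine on both arrays. Its intensity was 360 and 382 in minus N repeats 1 and 2, and 492 and 666 in plus glutamine repeats 1 and 2. The minus N repeats were close together, and both glutamine arrays lay above them. The log2 means were 8.54 ± 0.06 (SD, n = 2) and 9.16 ± 0.31 (SD, n = 2), a difference of 0.63 (SE 0.24), which corresponds to 1.54-fold. Within repeat 1 the difference was 0.45 and within repeat 2 it was 0.80. The 95% interval reached from 0.01 to 1.24 and thus from 1.01-fold to 2.37-fold. The unadjusted p of limma's moderated test was 0.048 and the p adjusted over all probe sets was 1. An exact permutation test gave p = 0.333 (two-sided, n = 2 per group), the smallest value that 2 arrays against 2 can give.

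The other probe sets of GDH2 bear on the same gene. That with the suffix that marks possible cross-hybridisation gave 115 and 128 without nitrogen, and 147 and 183 with glutamine, without overlap. Its log2 difference was 0.43 (SE 0.23, 95% interval from -0.15 to 1.02), 0.35 within repeat 1 and 0.51 within repeat 2. The remaining probe set gave only 4.4 to 7.5, far below the array median, and a difference of 0.05 (SE 0.32). Both probe sets of GDH2 that were brighter than the median thus had the same direction in both repeats. They share the RNA of the same 4 samples and are no independent replicates. Of all 57258 probe sets, 1.40% had a larger difference than the brightest probe set of GDH2, and of the 28629 probe sets brighter than the median 2.57% did. GDH2 had the largest difference of the 8 genes, and these shares make no allowance for that. The ratio of 3′ to 5′ actin signal was lower with glutamine in both repeats (6.73 and 6.16 in repeat 1, 4.98 and 4.60 in repeat 2), and its part in the GDH2 difference was not tested.

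GDH1 encodes another glutamate dehydrogenase, and its values followed the repeat number. Its intensity was 366 and 697 without nitrogen and 443 and 612 with glutamine. The minus N repeats again enclosed the glutamine repeats. The log2 difference was 0.04 (SE 0.38, 95% interval from -0.91 to 1.00), with 0.28 within repeat 1 and -0.19 within repeat 2. Without minus N repeat 1 it was -0.42, and without minus N repeat 2 it was 0.51. Whether GDH1 and GDH2 differ in their response was not tested, and their intervals overlap.

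GDH3 was dim on every array, at 7.8 and 12.7 without nitrogen and at 7.2 and 10.4 with glutamine. The groups overlapped, and the arrays numbered 2 were the brighter in both. The log2 difference was -0.20 (SE 0.34, 95% interval from -1.05 to 0.65). As for GLT2, these intensities lay below the array median and give no measure of a response.

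**Figure D2:**
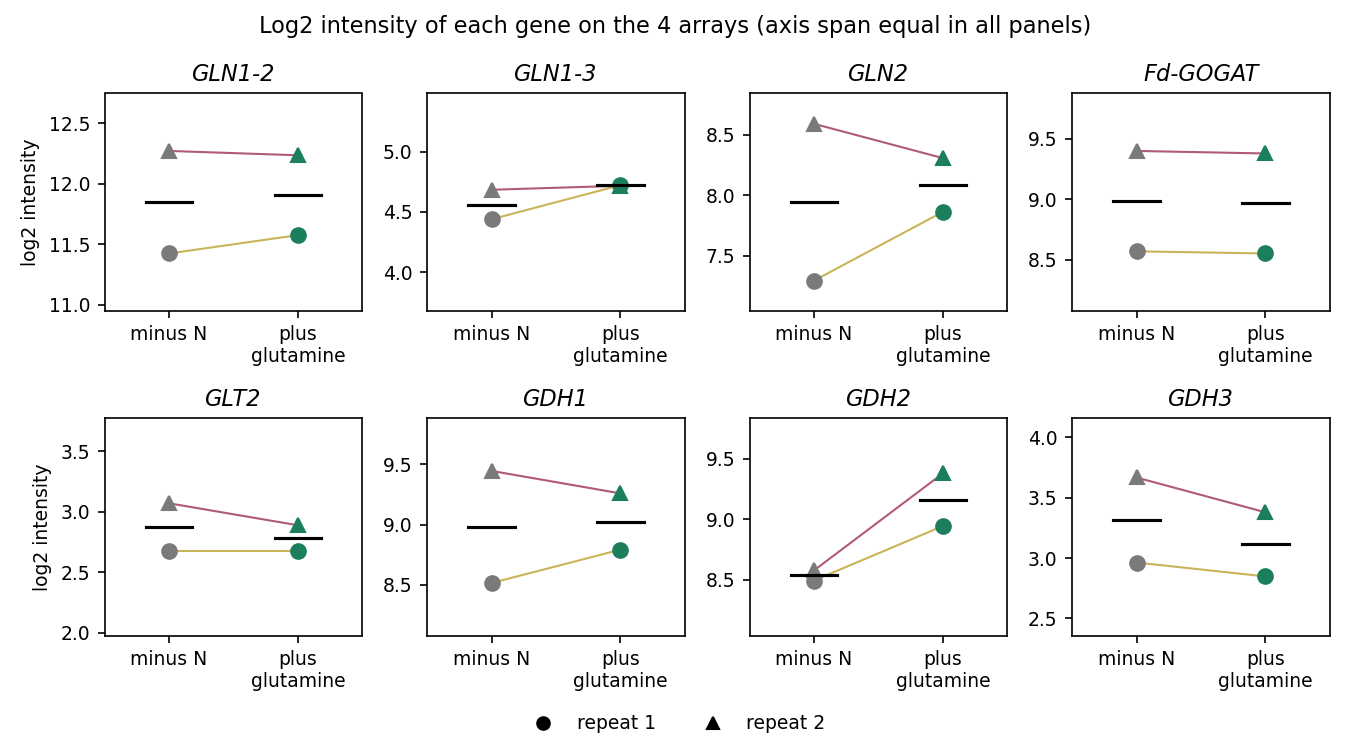
Log2 intensity (y axis, the same span in every panel) of the 8 genes in the minus N (grey) and plus glutamine (green) groups. Circles are repeat 1, triangles repeat 2, coloured lines join arrays of the same number and black bars are group means. GDH2 has both glutamine arrays above both minus N arrays by a margin, whereas GLN1-2, GLN2, Fd-GOGAT and GDH1 separate by repeat number. The dim genes GLT2 and GDH3 separate by repeat number as well.

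Across the 8 genes, none passed the threshold of 0.05 for the p adjusted over all probe sets with limma, 1 (GDH2) had an unadjusted p under 0.05, and no probe set of the array passed either (0.0% higher and 0.0% lower). An unadjusted p under 0.05 with a higher value was found for 453 of all probe sets, or 0.791%. Of the 17905 genes with 1 probe set each, 285 had an unadjusted limma p under 0.05 in either direction. Of the 8 genes, 2 were higher with glutamine without overlap (GLN1-3 and GDH2), 0 were lower without overlap and 6 overlapped. None of the 8 reached a 2-fold difference without overlap, which 0.393% of all probe sets did with higher and 0.0332% with lower values. Of all probe sets 8.36% were higher and 8.22% lower without overlap, and of all genes with 1 probe set each 10.1% and 9.03%. The count of 2 became 1 after quantile normalization, when GLN1-3 overlapped, and it is not read as a difference from the background. The median log2 difference of the 8 genes was 0.05, against -0.01 over all 17905 genes with 1 probe set each. The differences ranged from -0.20 for GDH3 to 0.63 for GDH2. The 5th and 95th percentiles over all probe sets were -0.30 and 0.34, and GDH2 was the only gene of the 8 outside this range.

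**Figure D3:**
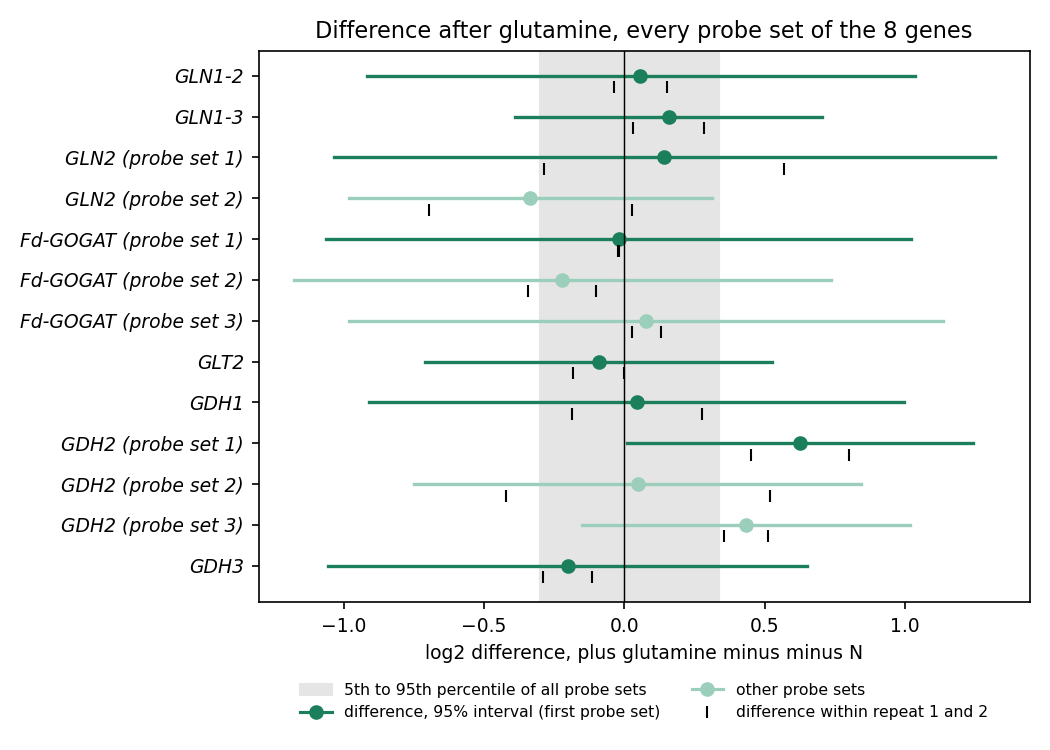
Log2 difference between plus glutamine and minus N (x axis) for the 13 probe sets of the 8 genes, numbered within a gene from the one chosen for it, with the 95% interval of the limma fit as a line. Black ticks give the difference within repeat 1 and within repeat 2, and the grey band runs from -0.30 to 0.34, the 5th to the 95th percentile of all probe sets. Every interval but that of the first GDH2 probe set includes 0.

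In 6 of the 8 genes the difference between group means was smaller than the difference between repeats within either group, the exceptions being GLN1-3 and GDH2. The same held for 63.1% of all probe sets and for 62.7% of those brighter than the median, so the count is not read as particular to these genes. The array numbered 2 was above that numbered 1 in both groups for 7 of the 8 genes, all but GLN1-3. This held for 51.8% of all probe sets and for 10083 of the 17905 genes with 1 probe set each. The array numbered 2 was above by at least 0.5 in both groups for GLN1-2, Fd-GOGAT and GDH3, against 11.8% of all probe sets. The median of all probe sets was also higher on the arrays numbered 2, and these counts are not read as particular to the 8 genes. The ratio of 3′ to 5′ actin signal was lower on the arrays numbered 2, and its part in these differences was not tested. The group difference had 1 sign within both repeats in 4 of the 8 genes (GLN1-3, Fd-GOGAT, GDH2 and GDH3). Leaving out 1 array leaves unequal repeat numbers in the groups. The sign of the group difference turned in 6 of the 8 genes when single arrays were left out and stayed the same in GLN1-3 and GDH2. For GDH2 the difference was lowest, at 0.41, without plus glutamine repeat 2, and highest, at 0.84, without plus glutamine repeat 1.

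**Figure D4:**
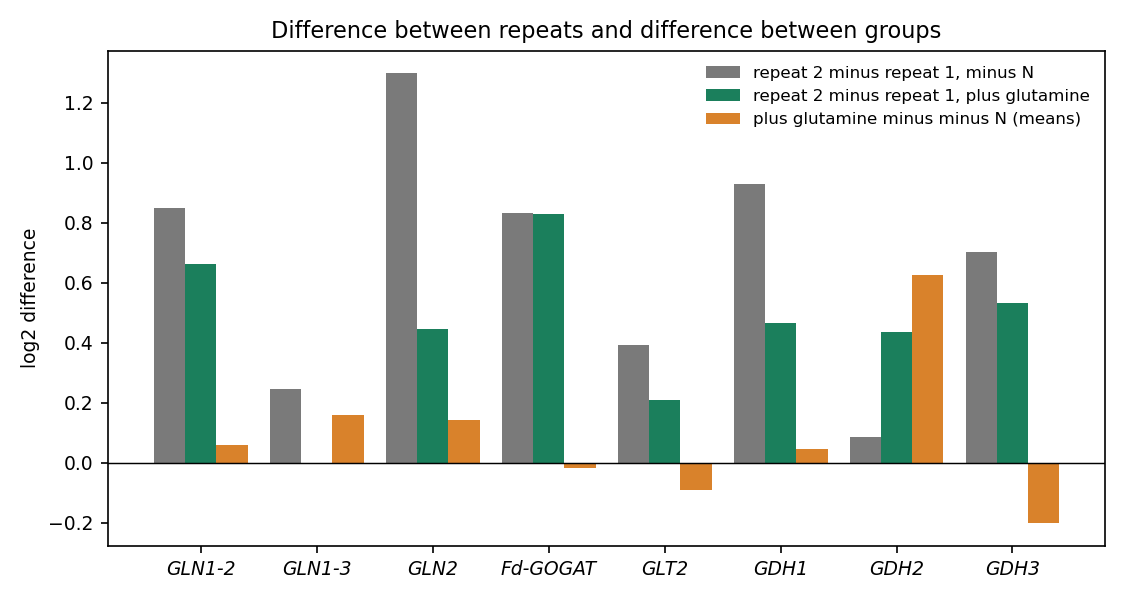
Log2 differences (y axis) for each of the 8 genes: repeat 2 minus repeat 1 without nitrogen (grey), the same with glutamine (green), and the difference between group means (orange). The orange bar is the tallest for GDH2 alone, at 0.63 against 0.08 and 0.44.

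Around these enzymes, 21 further genes were matched by name to lists of the pathway, and none passed the adjusted threshold or had an unadjusted p under 0.05. Of the 21, 2 were higher and 1 lower without overlap, against 10.1% and 9.03% of all genes with 1 probe set each. Each of these rests on a probe set whose name marks several transcripts as possible targets. The median log2 difference of the 21 genes was -0.02. This was the value of an ACR2 gene, matched to the regulators by name only. No gene of asparagine synthesis or of transamination was matched.

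In the list of nitrate reduction and ferredoxin reductases, 4 genes were matched, and their median difference was 0.14. NIA1, a nitrate reductase gene, had intensities of 64.1 and 143 without nitrogen and of 98.0 and 149.6 with glutamine, a log2 difference of 0.34 (SE 0.45). Both repeats numbered 2 were high and the groups overlapped. Of 2 genes named FNR, LOC4342399 was the gene lower without overlap, at 9.88 and 9.91 against 9.71 and 9.71, a difference of -0.19 (SE 0.20), and LOC4334338 differed by 0.17 (SE 0.37). LFNR1 differed by 0.12 (SE 0.41), and like GLN2 it was lowest in minus N repeat 1 and highest in minus N repeat 2.

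Carbon skeletons for glutamate come from pyruvate and organic acids, and this list held 2 pyruvate phosphate dikinase genes. OsPPDKB differed by 0.17 (SE 0.31) and PPDK2 by -0.27 (SE 0.53). Among 5 genes of glutamate or glutamine metabolism, none was without overlap, and the median difference was -0.05. OAT, named for ornithine aminotransferase, differed by 0.14 (SE 0.34) and OsP5CS2, of proline synthesis, by -0.07 (SE 0.25). CARA and CARB, for the subunits of the carbamoyl phosphate synthetase that takes nitrogen from glutamine, differed by -0.05 (SE 0.26) and -0.13 (SE 0.41).

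Among 9 genes with names of regulators the median difference was -0.02, with 2 higher and 0 lower where the groups did not overlap. DOF2, of the Dof zinc finger family, stood at 7.83 and 7.87 without nitrogen and at 8.02 and 8.32 with glutamine, a difference of 0.32 (SE 0.22). DOF1, of the same family, stood at 7.42 and 7.71, and at 7.80 and 7.87, a difference of 0.27 (SE 0.22). For DOF1 the nearest values of the groups lay close together. DOF4 differed by -0.16 (SE 0.25). ACR2.2, matched by its name although ACR2 genes are known as arsenate reductases, differed by -0.15 (SE 0.25). The median of this list, -0.02, was the value of another ACR2 gene matched in the same way.

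**Figure D5:**
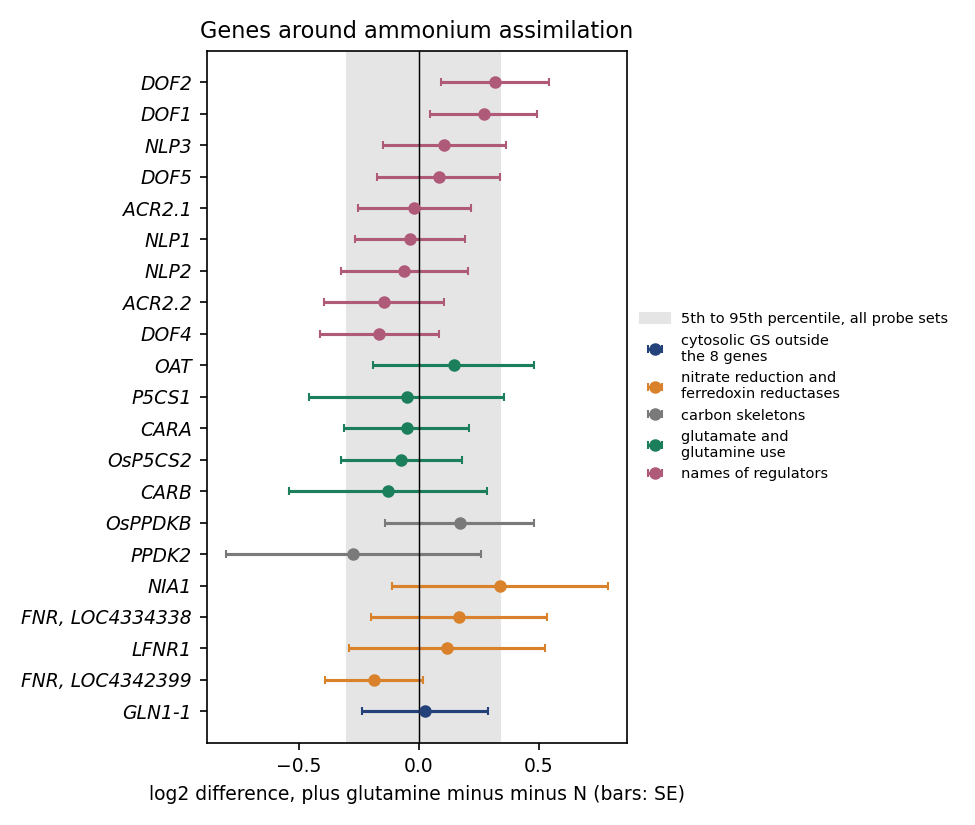
Log2 difference between plus glutamine and minus N (x axis, bars are SE) of the 21 further genes, coloured by list, with the 5th to 95th percentile of all probe sets in grey. All points lie between -0.27 for PPDK2 and 0.34 for NIA1.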

How the data were processed

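RNA from 4 root samples (10 ug total RNA each, per the labels' protocols) was hybridised to the GeneChip Rice Genome Array. Its values, as deposited by the authors, are linear intensities from 2.9 to 21202.3, a single one for a probe set on an array. The submitters' processing notes name GCOS and RMA and give neither version nor role. The summary and scaling are otherwise not given in the sources used here.

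Intensities were floored at 1, which raised 0 values, and then put on the log2 scale as they stood. Array controls (123 probe sets) did not enter. By the platform annotation, 22436 probe sets have 1 gene, 95 have several (not named) and 34727 have none. Genes were named through a RefSeq table of assembly ASM3414082v1 by symbol or synonym, ignoring case, punctuation and a leading Os. For Fd-GOGAT and GDH1, and for genes of the lists, the probe set with the highest mean was used, and for the other members a stated one. From each list up to 4 genes with the smallest unadjusted p were named. The genes followed and the lists were chosen with earlier results of these data known.

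Groups were compared with limma 3.58.1 in R 4.3.3 (lmFit, eBayes, group as the single term), two-sided, with Benjamini-Hochberg adjustment over 57258 probe sets. The number of arrays limits the precision. The code of the fit was tested on simulated arrays with a small spread and no difference between repeats. That test does not measure how well differences are found in these data. Alternatives were the replicate number as a further term, each array left out, other variance priors, 2 normalizations, a floor at the 20th percentile, filters on dim or cross-hybridising probe sets, and other probe sets of a gene. Figures were drawn with matplotlib 3.10.9.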

Additional observations from a re-analysis of the deposited data

How the results depend on the processing

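The fit called 0 probe sets, and this held under every setting planned for the fit. A replicate block with a trended and robust prior, chosen after seeing the data, called 24, all of them higher. Without a variance model, 244 probe sets without overlap reached a fold of at least 2. In the main limma fit 505 probe sets had an unadjusted p under 0.05. The replicate numbers are not stated to mark a shared day or culture. The deviations of the arrays numbered 1 from their group means correlated at r = 0.675 across probe sets, which are no replicates. With the replicate block alone, limma gave GDH2 an SE of 0.16 on the difference of 0.63 (adjusted p = 0.999), and with the added prior an adjusted p of 0.402. The block alone lowered the SE of the other genes followed as well. Their SE was then 0.146 for GLN1-2, 0.15 for GLN1-3, 0.235 for GLN2 and 0.14 for Fd-GOGAT. For GLT2, GDH1 and GDH3 it was 0.145, 0.173 and 0.145. The adjusted p of GDH2 was between 0.402 and 1 over all settings, and none of the 8 genes, GDH2 included, passed the adjusted threshold in any setting. Genes without overlap among the 8 were 2, and 1 after quantile normalization. Other probe sets turned the sign of GLN2 (-0.33) and Fd-GOGAT (0.078).

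The remaining reversals came from single arrays left out, which leaves unequal repeat numbers in the groups. The differences then ranged from -0.37 to 0.48 for GLN1-2, -0.51 to 0.79 for GLN2, -0.44 to 0.40 for Fd-GOGAT, -0.29 to 0.10 for GLT2, -0.42 to 0.51 for GDH1 and -0.55 to 0.15 for GDH3. GLN1-3 (0.04 to 0.28) and GDH2 (0.41 to 0.84) kept their sign. Of the 15 pathway genes named, 12 turned. The ranges were -0.18 to 0.23 for GLN1-1, -0.24 to 0.92 for NIA1, -0.20 to 0.53 for the FNR gene LOC4334338, -0.45 to 0.69 for LFNR1, -0.14 to 0.48 for OsPPDKB and -0.86 to 0.31 for PPDK2. They were -0.22 to 0.51 for OAT, -0.62 to 0.36 for CARB, -0.28 to 0.13 for OsP5CS2, -0.29 to 0.18 for CARA, -0.36 to 0.035 for DOF4 and -0.34 to 0.046 for ACR2.2. With all arrays the difference had the same sign within both repeats for 4 of the 8 genes, and for 11 of the 21 pathway genes, PPDK2 (-0.24 and -0.31) and the FNR gene LOC4334338 (0.19 and 0.14) among them.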
